A study of Mus musculus with 384 samples.

Results

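The 7 genes described here are the D-type cyclins Ccnd1, Ccnd2 and Ccnd3, the CIP/KIP inhibitors of cyclin-dependent kinases Cdkn1a (p21), Cdkn1b (p27) and Cdkn1c (p57), and the antiproliferative gene Btg2. They are the rows of the expression table whose identifier ends in 1 of these symbols, 7 of 46609 rows, and were chosen by name. D-type cyclins bind the kinases CDK4 and CDK6 in the G1 phase, and the complexes phosphorylate the retinoblastoma protein, which frees E2F factors to switch on the genes of DNA replication. CIP/KIP proteins bind cyclin and kinase complexes: they block CDK2 complexes, while p21 and p27 also help cyclin D and CDK4 to assemble. Cdkn1a is a direct target of the tumour suppressor p53, p27 is held mainly by destruction of the protein rather than by its RNA, and Btg2, itself induced by p53 and by growth factors, recruits the CCR4-NOT complex that shortens the poly(A) tails of messenger RNAs. Hair follicle stem cells of the bulge, the niche below the sebaceous gland, rest for most of the hair cycle, and inhibitors of this kind are among the genes linked to such rest.

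Single cells, taken from the back skin of mice 70 days old, had their RNA measured by Smart-seq2, which reads whole transcripts. The dKO cells came from mice with the alleles Sox9-CreER, NFIBfl/fl, NFIXfl/fl and R26-YFPfl/fl, and the cKO cells from mice that differ in a single NFIB allele (NFIBfl/+). Both genotypes therefore carry the floxed NFIX alleles, the Sox9-driven inducible Cre and the YFP reporter, and the comparison bears on the second NFIB allele where both NFIX alleles are floxed; no wild type is among the samples used here. All cells were sorted as DAPI-negative, integrin alpha-6-positive and YFP-positive, and as Sca-1-negative or Sca-1-positive; Sca-1, the product of Ly6a, marks the upper follicle and the epidermis. Of 384 cells, 378 with at least 1000 genes at 1 TPM (a level per transcript length, scaled to the same total in each cell) were kept: 93 and 61 dKO cells on 2 plates and 71, 47 and 65 cKO cells on 3 plates in the Sca-1-negative gate (337 in all), and 19 dKO cells of plate 2 and 22 cKO cells of plate 3 in the Sca-1-positive gate.

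No label names an animal. Each genotype was therefore taken as 1 sample, no test was run and no p-value is given. Plates are shown apart and were not counted as independent replicates. Xist RNA was present on dKO plate 1 and on cKO plates 1 and 2 (44.5 to 59.8 TPM), and Y-linked RNA on dKO plate 2 and cKO plate 3, although the labels call every mouse male. Within each genotype, the plates with Xist RNA and those with Y-linked RNA thus came from different mice. Whether cKO plates 1 and 2 share a mouse is unknown. Median genes per cell ran from 4770 to 5199 over the plates and gates, and a single ribosomal row, Rn18s-rs5, took 55.3% to 61.5% of all TPM. Nfib RNA averaged 58.4 and 90.4 TPM on the dKO plates against 80.4, 72.8 and 67.1 TPM on the cKO plates, and Nfix RNA 29.6 and 32.3 TPM against 46.7, 47.96 and 43.7 TPM, without overlap although the labels give both genotypes the same NFIX alleles. A total over a gene cannot show whether its floxed part was lost. Stem cell markers were at 1935 to 3294 summed TPM over 13 genes in Sca-1-negative cells, with none at 0. The basal keratins Krt5 and Krt14 made up much of this (752 and 710 TPM on dKO plate 1), and the sum was 4796 TPM in dKO and 4280 TPM in cKO Sca-1-positive cells, where Lhx2, Tbx1 and Cd200 were at 0. Immune, melanocyte, Schwann and nerve, fibroblast, endothelial and Merkel markers summed to at most 34.3, 32.9, 24.8, 23.8, 1.17 and 0.376 TPM on any plate.

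**Figure D1:**
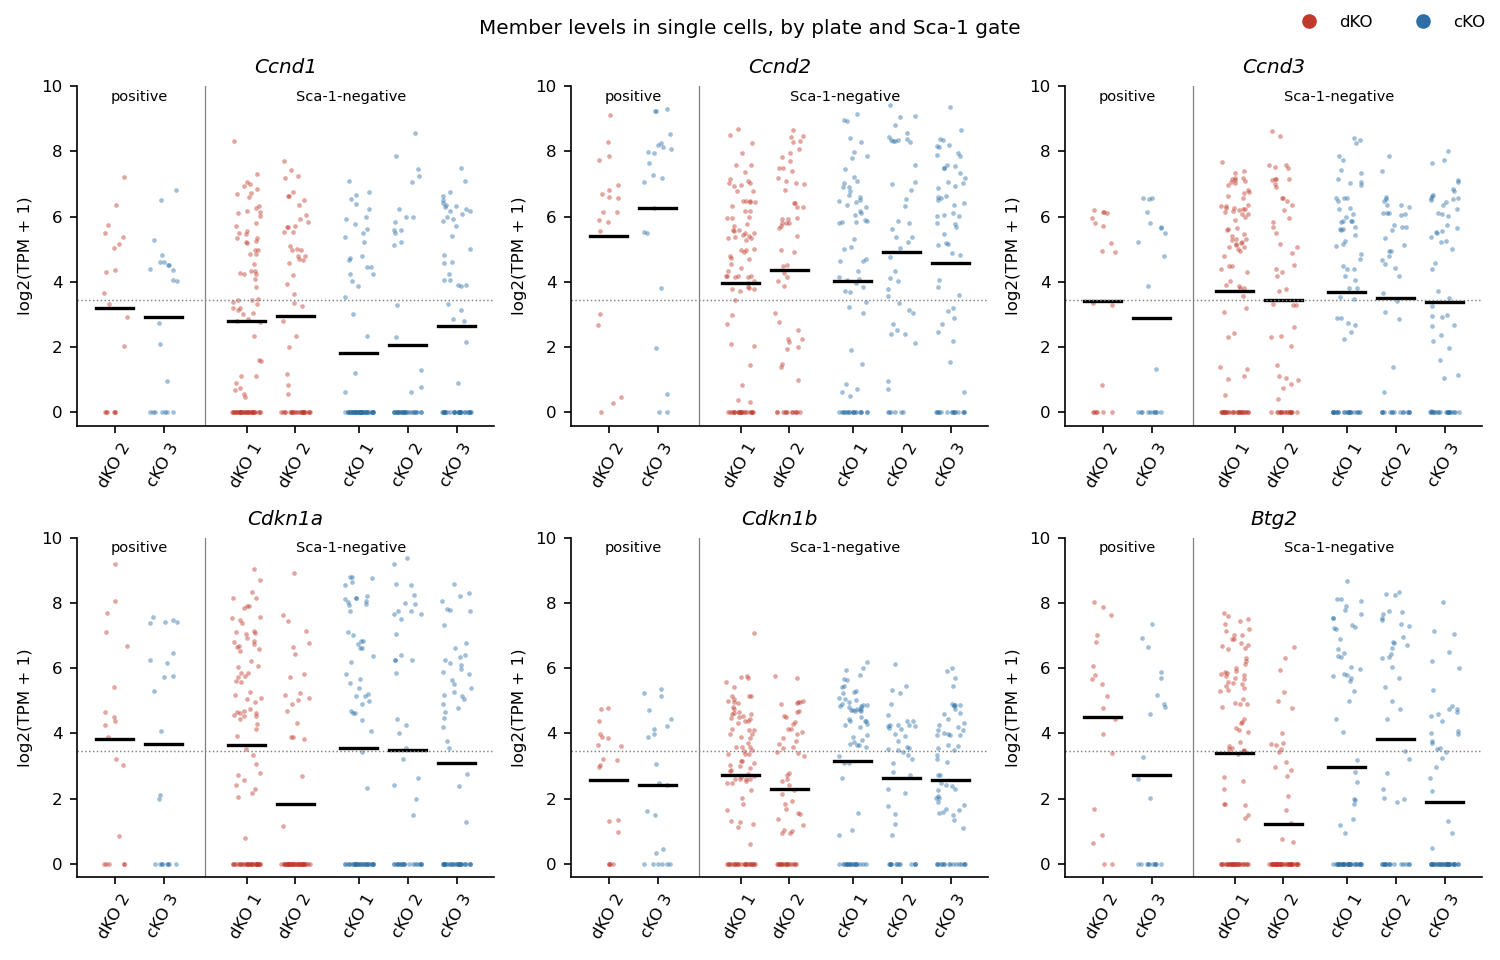
Level of 6 genes in each kept cell as log2(TPM + 1) (y axis) by plate (x axis), Sca-1-positive cells at the left and Sca-1-negative cells at the right of the line; each point is a cell, black bars are means of log2(TPM + 1) and the dotted line is 10 TPM. Most panels hold many cells at 0 beside cells far above 10 TPM, and Btg2 and Cdkn1a are lowest in the Sca-1-negative cells of dKO plate 2, at means of 1.21 and 1.84.

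All 3 D-type cyclins were expressed, Ccnd2 and Ccnd3 in most Sca-1-negative cells and Ccnd1 in fewer. Cells holding 10 TPM or more of a gene were called positive for it. Of 337 Sca-1-negative cells, 36 (10.7%, exact 95% interval 7.59% to 14.5%) held no D-type cyclin at that level, 34.7% held 1, 39.2% held 2 and 52 cells held all 3 (15.4%, 11.7% to 19.7%). These intervals, and those that follow, cover counting error only. Ccnd2 was positive in 217 cells (64.4%), Ccnd3 in 188 (55.8%) and Ccnd1 in 39.2%. Ccnd1 was the sole D-type cyclin in 13 cells, against 57 for Ccnd2 and 47 for Ccnd3.

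Ccnd2 took the largest part of the summed D-type cyclin TPM on each plate. Its part was 42.4% and 48.9% on the dKO plates and 51.96%, 64.8% and 57.98% on the cKO plates, so that the plates of both genotypes did not overlap. The part of Ccnd1 was 22.3% and 19.1% in dKO and 11.3%, 16.6% and 16.4% in cKO, again with no overlap. The part of Ccnd3 overlapped, at 35.3% and 32.01% in dKO and 36.8%, 18.5% and 25.6% in cKO. No background over other genes was computed for parts of a sum. On the scale of single genes, the mean TPM of the plates of both genotypes lay apart, in either direction, in 22.8% of the 7103 genes measured in these cells, which are those with a mean of 5 TPM or more, and in none of the 6 measured members.

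Ccnd1 (chr7:144929931-144939925, minus strand, GRCm38) lies in a pathway from growth factor and Wnt signals to the cell cycle. It averaged 26.9 and 31.1 TPM on the dKO plates and 16.1, 32.95 and 26.4 TPM on the cKO plates. The lowest and the highest plate were both cKO, and the dKO plates lay between them. The ratio of dKO to cKO was 1.15 (log2 0.20). Its mean in positive cells alone was 63.1 and 64.2 TPM in dKO and 49.1, 109.5 and 60.1 TPM in cKO; on cKO plate 2 the 3 highest cells held 50.7% of its TPM. The share of positive cells was 40.9% and 47.5% in dKO against 32.4%, 29.8% and 43.1% in cKO, and these overlap.

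Ccnd2 (chr6:127125162-127152193, minus strand), a D-type cyclin often found where cells respond to growth factor signals, had the highest mean of the 7 genes on 3 of 5 plates. It averaged 51.2 and 79.5 TPM in dKO and 74.1, 128.5 and 93.2 TPM in cKO. dKO plate 1 was the lowest and cKO plate 2 the highest, and dKO plate 2 lay between the cKO plates. The ratio of dKO to cKO was 0.666 (log2 -0.59), while the share of positive cells was alike: 66.7% and 62.3% in dKO, 61.97%, 65.96% and 64.6% in cKO. Its mean in positive cells alone was 76.4 and 126.5 TPM in dKO and 118.9, 193 and 143.4 TPM in cKO, and these overlap. Within the plates with Xist RNA (dKO plate 1, cKO plates 1 and 2) the log2 ratio was -0.97, and within the plates with Y-linked RNA (dKO plate 2, cKO plate 3) it was -0.23.

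Ccnd3 (chr17:47505051-47599691, plus strand), the most widely expressed D-type cyclin of adult tissues, was the steadiest of the 3. It averaged 42.6 and 52.04 TPM in dKO and 52.4, 36.7 and 41.2 TPM in cKO, with a ratio of 1.09 (log2 0.12). Its positive share was 61.3% and 49.2% in dKO and 59.2%, 57.4% and 49.2% in cKO. The plates of both genotypes overlapped in level and share.

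Among the inhibitors, Cdkn1a (chr17:29090976-29100727, plus strand) had the highest levels, and it was uneven between cells and plates. It averaged 60.4 and 27.03 TPM in dKO and 82.9, 93.6 and 50.2 TPM in cKO. dKO plate 2 was the lowest, with 40 of 61 cells at 0 TPM and 60.2% of its TPM in the 4 highest cells. dKO plate 1 lay above cKO plate 3. The ratio of dKO to cKO was 0.584 (log2 -0.77). The share of positive cells was 54.8% and 31.1% in dKO and 52.1%, 46.8% and 49.2% in cKO, so only dKO plate 2 stood below the others.

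Cdkn1b (chr6:134920401-134925513, plus strand) was low and even. It averaged 13.1 and 9.61 TPM in dKO and 18.4, 11.6 and 11.4 TPM in cKO, a ratio of 0.836 (log2 -0.26) with overlapping plates. Its share of positive cells was 40.9% (38 of 93) and 36.1% (22 of 61) in dKO against 61.97% (44 of 71), 46.8% (22 of 47) and 41.5% (27 of 65) in cKO. These shares did not overlap, as in 23.4% of all measured genes, and it was the 1 member of 6 for which they did not; they overlapped at a cut of 1, 5 or 20 TPM and after matching on genes detected. Cdkn1c (chr7:143458339-143461050, minus strand), an imprinted gene, was positive in 1 of 337 Sca-1-negative cells, in no dKO cell (which allows a share of up to 1.95%) and in 1 cKO cell, at 34.2 TPM. It averaged 0.0318 TPM in dKO and 0.265 TPM in cKO and was not compared further.

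Btg2 (chr1:134075170-134079120, minus strand) varied most between plates. It averaged 38.5 and 7.19 TPM in dKO and 54.2, 69.9 and 16.8 TPM in cKO. dKO plate 2 and cKO plate 3, the plates with Y-linked RNA, were the 2 lowest. They were also the 2 plates that hold both gates. Their Sca-1-negative cells had the lowest summed TPM of 20 immediate early genes (described below), at 875 and 1518 TPM. These traits fall on the same plates and cannot be told apart. The ratio of dKO to cKO for Btg2 was 0.498 (log2 -1.01), with overlapping plates. Its positive share was 55.9% and 18.03% in dKO and 40.8%, 53.2% and 32.3% in cKO, so the highest and the lowest share were both dKO.

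**Figure D2:**
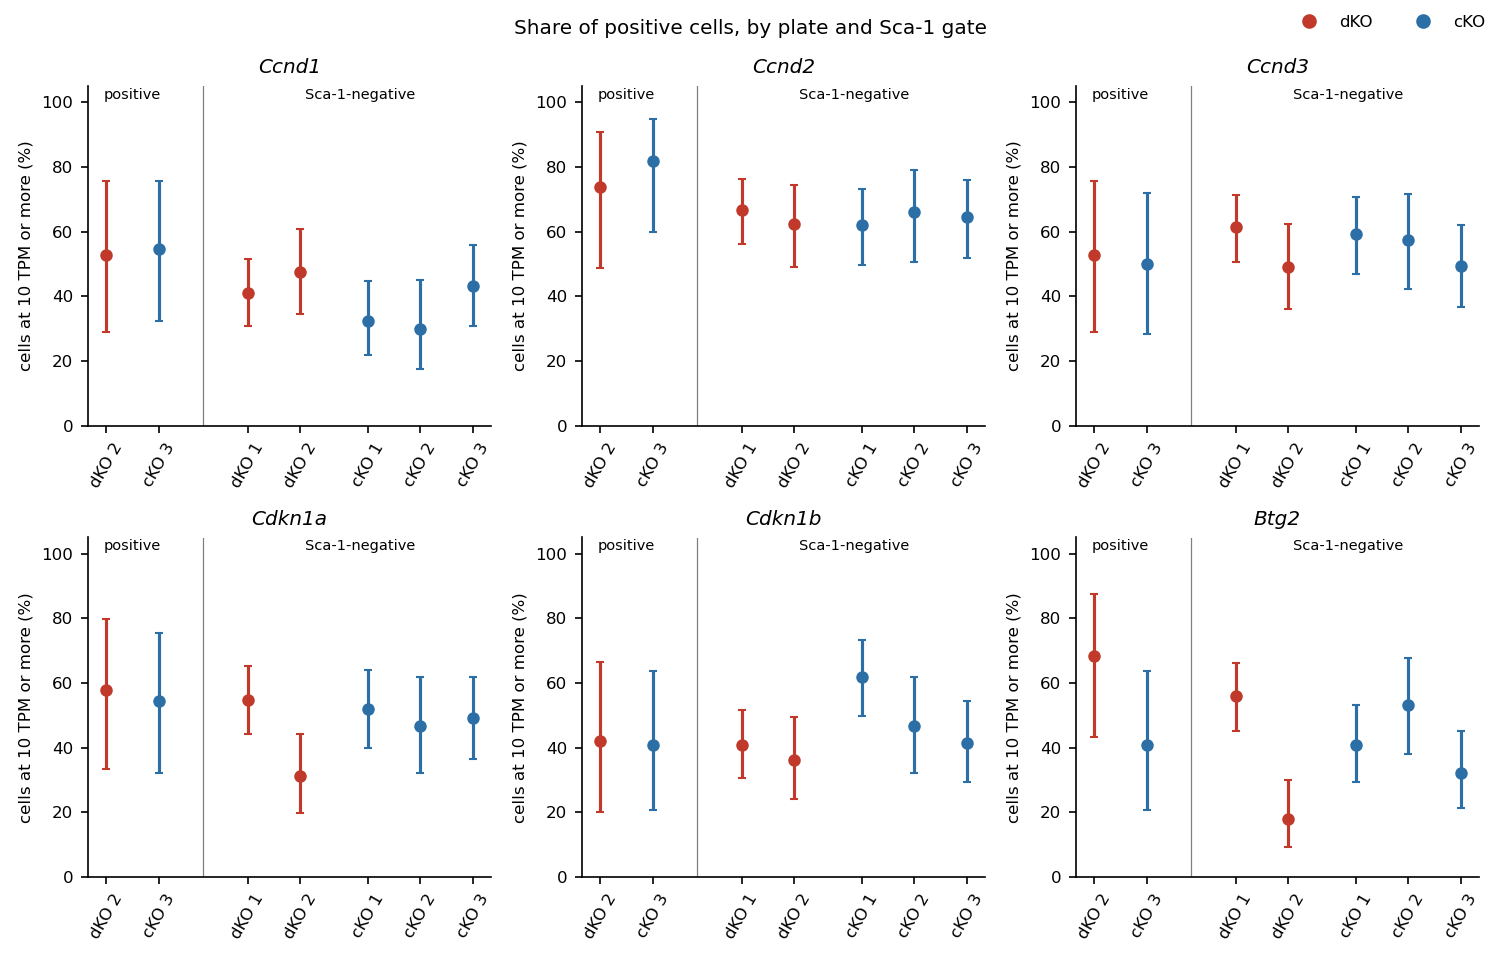
Share of kept cells at 10 TPM or more (y axis, percent) for 6 genes by plate (x axis), Sca-1-positive cells at the left and Sca-1-negative cells at the right of the line; points are shares and bars exact 95% intervals, counting error only. The Sca-1-negative cells of dKO plate 2 lie lowest for Cdkn1a (31.1%) and Btg2 (18.03%).

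In Sca-1-negative cells none of the 6 measured members passed the size rule between dKO and cKO, which asks for a 1.5-fold change or more and for plates of both genotypes that are apart on the TPM scale and on the log2(TPM + 1) scale. Over all 7103 measured genes, 1.76% were higher and 3.96% lower in dKO by that rule. The median log2 ratio of the members was -0.42, beside -0.12 over all measured genes. The call depended on plates. Ccnd2 passed as lower in dKO within the plates with Xist RNA, without dKO plate 2 and without cKO plate 1; Cdkn1a (log2 -0.87) and Btg2 (log2 -1.12) passed as lower within the plates with Y-linked RNA and without dKO plate 1. Within the plates with Y-linked RNA 1 plate stands against 1, and they are then apart by construction. The plates with Y-linked RNA are also those with both gates and the lowest immediate early gene sums, which cannot be told apart. Fewer plates are more easily apart for any gene, and the share of all genes that passes in these subsets was not computed.

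Of the other genes of the G1 pathway, few passed. None of the 6 measured genes of 10 in the list of G1 cyclins and kinases passed between dKO and cKO: Cdk4, the kinase partner of D-type cyclins, averaged 68.4 TPM in dKO and 57.6 TPM in cKO, and its relative Cdk6 averaged 27.5 and 29.1 TPM. Below the mean of 5 TPM that makes a gene measured, Cdk2 was lower in dKO by the rule, at 2.52 against 4.45 TPM. None of 5 measured pocket protein, E2F and DREAM genes of 17 passed; Tfdp2, a partner of E2F factors, averaged 11.7 and 14.3 TPM, and the pocket protein Rbl2 10.9 and 13.6 TPM, dKO given before cKO. None of 8 measured genes of 12 that control p27 or cyclin D protein passed, with Skp1a, a part of SCF ubiquitin ligases, at 80.4 TPM in dKO and 91.6 TPM in cKO, and Rnf123, a ubiquitin ligase for p27, at 25.1 and 23.5 TPM. The 4 INK4 inhibitor genes, which bind CDK4 and CDK6 alone, averaged below 5 TPM over the plates, the highest being Cdkn2d at 3.60 TPM in dKO and 5.07 TPM in cKO and Cdkn2b at 3.33 and 1.54 TPM.

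Of 16 p53 genes, counting Trp53 itself, 9 were measured and none passed between dKO and cKO; Trp53 averaged 35.9 TPM in dKO and 37.4 TPM in cKO, and Phlda3, a p53-induced inhibitor of AKT, 27.8 and 26.8 TPM. Of 8 BTG/TOB and CCR4-NOT genes 7 were measured and none passed, Cnot7, a deadenylase, at 16.2 TPM in dKO and 14.8 TPM in cKO and Tob1, an antiproliferative relative of Btg2, at 8.30 and 9.93 TPM. Of 20 immediate early genes, which cells switch on within minutes of a stimulus, 18 were measured, and 2 passed, both lower in dKO: Klf4 at 30.6 against 49.5 TPM and Klf6 at 14.9 against 26.97 TPM. The median log2 ratio of that list was -0.77.

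The promoters of Btg2 and Cdkn1a are shown because these are the members that differed between the Sca-1 gates in dKO and that were positive together. RefSeq promoters (GRCm38.p6; the 250 bases before a transcript start) were matched for 4 of 7 members, with 6 starts; Ccnd1, Ccnd2 and Cdkn1c were not. They were searched on both strands for the cAMP response element TGACGTCA, the AP-1 site TGANTCA, the CCAAT box CCAAT, the TATA box TATAAA, the GC box GGGCGG, the E2F site TTTNNCGC, a palindromic NFI site (TTGGC and GCCAA 5 bases apart) and the p53 site, 2 parts of 10 bases end to end with up to 2 mismatches. Sequences are 5′ to 3′ on the gene's strand.
Btg2, chr1:134079156-134079405, minus strand, with the cAMP response element and 2 CCAAT boxes in capitals: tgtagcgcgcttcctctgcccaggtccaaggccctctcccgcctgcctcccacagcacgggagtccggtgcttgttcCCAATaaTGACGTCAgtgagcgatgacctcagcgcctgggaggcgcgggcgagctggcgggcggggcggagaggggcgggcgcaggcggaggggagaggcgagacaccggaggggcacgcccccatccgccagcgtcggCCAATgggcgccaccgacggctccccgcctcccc
Cdkn1a, first start, chr17:29090729-29090978, plus strand, with the p53 site in capitals: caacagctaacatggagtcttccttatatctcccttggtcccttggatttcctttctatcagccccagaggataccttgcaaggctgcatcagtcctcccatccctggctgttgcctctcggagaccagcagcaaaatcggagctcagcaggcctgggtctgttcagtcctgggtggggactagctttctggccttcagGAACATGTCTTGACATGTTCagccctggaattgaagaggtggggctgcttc
Cdkn1a, second start, chr17:29093519-29093768, plus strand, with 2 GC boxes in capitals: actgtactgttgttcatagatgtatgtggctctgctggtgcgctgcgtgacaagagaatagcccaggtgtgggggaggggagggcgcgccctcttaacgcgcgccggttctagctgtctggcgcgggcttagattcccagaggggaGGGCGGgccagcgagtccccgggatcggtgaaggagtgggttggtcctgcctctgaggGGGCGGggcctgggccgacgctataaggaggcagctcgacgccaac

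The cAMP response element of Btg2 lay between its 2 CCAAT boxes, close to the one farther from the start; 1.55% of 32851 promoters of the same length held one and 33.8% held a CCAAT box. The first start of Cdkn1a held a p53 site 51 bases before it, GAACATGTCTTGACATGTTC, with 1 mismatch, which 0.271% of promoters matched, and its second start, 2790 bases downstream, held 2 GC boxes, found in 32.7%. Btg2 held 3 GC boxes, which are not in capitals above. Cdkn1b and both starts of Ccnd3 held GC boxes, Cdkn1b held 2 CCAAT boxes and the second start of Ccnd3 held 1. No AP-1, E2F, TATA or NFI match lay in these windows of the 4 members, against 6.75%, 4.28%, 12.4% and 0.0365% of all promoters. A match describes letters, not binding, and the TPM sum does not tell which of the Cdkn1a starts was used.

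Between the gates, Btg2 and Cdkn1a were higher in Sca-1-positive than in Sca-1-negative cells of the same plate in dKO, and Ccnd2 was higher in cKO. Since 1 plate per genotype holds cells of both gates, a 2-fold ratio of means was asked for, together with a gap of 1 or more between the means of log2(TPM + 1). In dKO, 2 of 6 members passed as higher and none as lower, where 4.26% and 10.4% of 6576 measured genes did. In cKO, 1 of 6 passed as higher and none as lower, where 2.98% and 5.76% of 6683 genes did. The median log2 ratio of the members was 0.21 in dKO, beside -0.30 over all genes, and 0.07 in cKO, beside -0.15.

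Btg2 averaged 66.2 TPM in the 19 Sca-1-positive cells of dKO plate 2 and 7.19 TPM in its 61 Sca-1-negative cells, a ratio of 8.19 (log2 3.03). It was positive in 13 of 19 cells (68.4%, 43.4% to 87.4%) against 11 of 61 (18.03%, 9.36% to 29.98%), and these intervals do not overlap. In cKO plate 3 it averaged 28.3 TPM in Sca-1-positive and 16.8 TPM in Sca-1-negative cells, a ratio of 1.65, with 9 of 22 (40.9%) and 21 of 65 (32.3%) cells positive. The larger ratio in dKO goes with a high value in its Sca-1-positive and a low value in its Sca-1-negative cells, and the gates share their plates with the comparisons of genotypes.

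Cdkn1a averaged 76.4 TPM in Sca-1-positive and 27.03 TPM in Sca-1-negative cells of dKO plate 2, a ratio of 2.76 (log2 1.47), with 11 of 19 (57.9%) against 19 of 61 (31.1%) cells positive; the highest of the 19 cells held 40.3% of the TPM. In cKO plate 3 it averaged 57.5 and 50.2 TPM, with 12 of 22 (54.5%) and 32 of 65 (49.2%) cells positive. Its levels in the Sca-1-positive cells of either genotype were inside the range of the cKO Sca-1-negative plates.

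Ccnd2 averaged 211 TPM in Sca-1-positive and 93.2 TPM in Sca-1-negative cells of cKO plate 3, a ratio of 2.25 (log2 1.17), with 18 of 22 (81.8%) and 42 of 65 (64.6%) cells positive. It did not pass when the Sca-1-negative cells of rows C and D alone were used, at a log2 ratio of 0.95. In dKO plate 2 it averaged 113.4 and 79.5 TPM, a ratio of 1.42. Its part of the D-type cyclin TPM was 67.01% in dKO and 81.4% in cKO Sca-1-positive cells, against 48.9% and 57.98% in the Sca-1-negative cells of the same plates. Ccnd1, Ccnd3 and Cdkn1b did not pass: Ccnd1 averaged 26.4 against 31.1 TPM in dKO and 19.9 against 26.4 TPM in cKO, Ccnd3 29.5 against 52.04 TPM and 28.4 against 41.2 TPM, and Cdkn1b 8.99 against 9.61 TPM and 11 against 11.4 TPM. Cdkn1c was at 0 TPM in all 41 Sca-1-positive cells.

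Immediate early genes moved with Btg2 between the gates. In dKO 14 of 18 measured ones were higher in Sca-1-positive cells, led by Atf3 (323 against 33.2 TPM), Zfp36 (312 against 42.7 TPM) and Junb (151.1 against 22.7 TPM), and Egr2 and Ier3 were lower, with a list median of log2 2.08. In cKO 3 of 18 were higher: Atf3 (201 against 73.8 TPM), Zfp36 (166.8 against 72.5 TPM) and Junb (108.7 against 52.4 TPM). Their summed TPM was 4021 in dKO and 2423 in cKO Sca-1-positive cells, and 875 and 1518 in the Sca-1-negative cells of the same plates. The part of this in the values of Btg2 and Cdkn1a was not tested. Of the BTG/TOB list, Btg1, a relative of Btg2, was higher in Sca-1-positive cells in dKO (22.1 against 8.25 TPM) and reached 16.3 against 8.65 TPM in cKO, short of the rule; no other of the 7 measured in dKO and 6 in cKO passed.

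The gates differed in many marker genes, and not all upper follicle markers followed the Sca-1 label. Ly6a RNA was 124.6 against 25.95 TPM in dKO and 68.4 against 19.7 TPM in cKO. Of the upper follicle and epidermis list, 3 of 7 measured genes in dKO and 1 of 8 in cKO were higher in Sca-1-positive cells, and 2 were lower in each genotype. The lower ones were Krt79 (5.12 against 92.4 TPM in dKO, 45.2 against 171.1 TPM in cKO) and Lrig1 (12.5 against 44.5 TPM in dKO, 13.5 against 60.8 TPM in cKO), both markers of the upper follicle. Of the stem cell list, 8 of 12 measured genes in dKO and 7 of 11 in cKO were lower in Sca-1-positive cells, Lgr5 (0.0247 against 43.99 TPM in dKO and 0.0150 against 42.1 TPM in cKO) among them, while Krt14 was higher. Of the p53 list none of 7 genes in dKO and none of 9 in cKO passed, with Trp53 at 21.8 against 33.5 TPM in dKO and 44.1 against 38.8 TPM in cKO, and Phlda3 at 23.3 against 31 TPM and 19.1 against 27.4 TPM. Of the G1 list 1 gene passed, Cdk2ap1, a CDK2-binding protein, lower in cKO Sca-1-positive cells (7.35 against 17.4 TPM), and of the pocket protein list Tfdp2 was lower in dKO Sca-1-positive cells (3.64 against 12.4 TPM).

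Between genotypes in Sca-1-positive cells, Btg2 alone of 6 measured members passed as higher in dKO, at 66.2 against 28.3 TPM, a ratio of 2.29, where 3.09% of 5915 genes were higher and 4.14% lower; it did not pass with a pseudocount of 10 TPM. The 19 dKO and 22 cKO cells come from 1 plate each. Ccnd2 was at 113.4 TPM in dKO and 211 TPM in cKO, a ratio of 0.539, and the ratios of the other measured members lay between 0.832 and 1.32. In the same cells 2 of 18 immediate early genes were higher in dKO, Cyr61 (254 against 63.2 TPM) and Socs3 (64.6 against 27.7 TPM), as was Trp53inp1, a p53 target, at 33.97 against 12.2 TPM, the only one of 9 in its list. Cdk6 was lower, at 24.9 against 59.4 TPM.

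**Figure D3:**
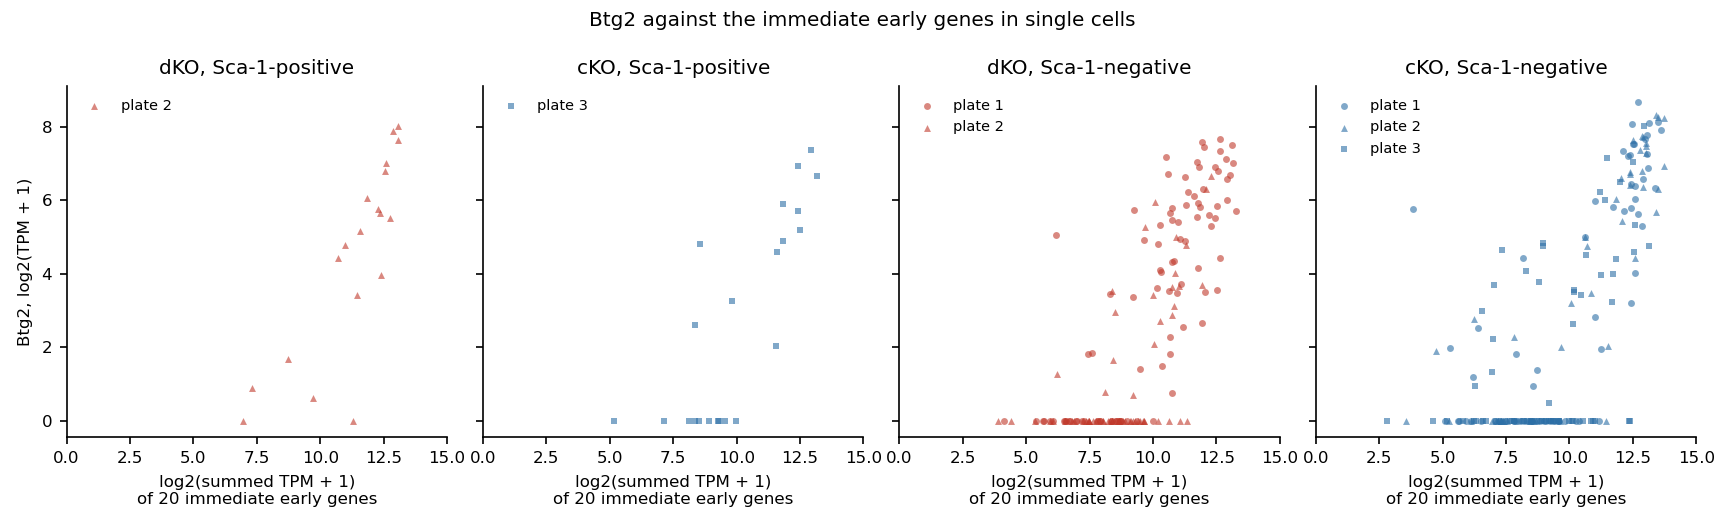
Btg2 as log2(TPM + 1) (y axis) against the summed TPM of 20 immediate early genes as log2(sum + 1) (x axis) in single cells of each genotype and gate; each point is a cell and symbols mark plates. Btg2 lies at or near 0 in most cells with a low sum and climbs with the sum in each panel, with Spearman rho of 0.47 to 0.87 by plate and gate.

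Within plates, Btg2 followed the immediate early genes cell by cell. Among 3835 candidate genes, the 3 whose levels over the 337 Sca-1-negative cells were most like Btg2 were Fosb (Spearman rho 0.77, 0.53 to 0.89 by plate), Atf3 (0.77, 0.39 to 0.84) and Fos (0.74, 0.54 to 0.84), transcription factors of the AP-1 and ATF families. These correlations are over cells, which share plates, and are descriptions. Btg2 was positive in 74.9% (67.7% to 81.2%) of the cells with at least 10 of the 20 immediate early genes at 10 TPM, which were 50.7% of the 337 cells, and in 6.02% (2.93% to 10.8%) of the rest. By plate the first share was 87.7% and 50% in dKO and 73%, 83.3% and 59.3% in cKO, and the second was 5.56% and 2.44% in dKO and 5.88%, 0% and 13.2% in cKO. The cells with at least 10 such genes were 61.3% and 32.8% of the dKO plates and 52.1%, 63.8% and 41.5% of the cKO plates, the same order of plates as for the positive share of Btg2 but for cKO plate 2 and dKO plate 1. In the Sca-1-positive gate they were 16 of 19 dKO and 11 of 22 cKO cells.

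Cdkn1a was most like Pkp1 (rho 0.46), Dsg1a (0.44) and Lypd3 (0.39), whose products belong to desmosomes or to the surface of keratinocytes, and rho was at least 0.34 on each plate for all 3. Its rho with the summed immediate early genes was 0.36 (0.20 to 0.62 by plate). The genes most like Ccnd1 were Krt5 (0.33), a basal keratin, Dst (0.33), a hemidesmosome linker, and Postn (0.32), a matrix protein. Those most like Ccnd2 were Ly6e (0.34), Ifitm3 (0.32) and Car12 (0.31), and those most like Ccnd3 were Timp2 (0.30), Crip1 (0.29) and Gja1 (0.29). For Cdkn1b the highest were Ap3b1 (0.22), Prrc2c (0.21) and Cryzl1 (0.20), and for Ap3b1 the sign differed between plates.

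Members were found together and apart in single cells. A D-type cyclin and a CIP/KIP inhibitor were both positive in 60.4% of dKO cells (52.2% to 68.2%) and 67.2% of cKO cells (59.9% to 73.96%). A D-type cyclin with no inhibitor was found in 46 dKO cells (29.9%) and 39 cKO cells (21.3%), an inhibitor alone in 11 and 16 cells, and neither in 4 and 5 cells. By plate the share with both was 63.4% and 55.7% in dKO and 73.2%, 68.1% and 60% in cKO, which overlap. Of the 15 pairs among the 6 measured members, Cdkn1a with Btg2 had the highest rho, 0.28 (0.12 to 0.52 by plate), and Ccnd1 with Cdkn1a the lowest, -0.26 (-0.49 to -0.098), negative on all 5 plates. Btg2 was positive in 54.7% of the cells with Cdkn1a and in 28.4% of those without it, but on dKO plate 1 the difference was 2.10 percentage points, against 27.6 to 34.96 on the other plates. Cdkn1a was positive in 38.6% of the cells with Ccnd1 and in 53.7% of those without it. Among the cyclins rho was 0.097 for Ccnd1 and Ccnd2, 0.08 for Ccnd1 and Ccnd3 and 0.01 for Ccnd2 and Ccnd3, and Cdkn1a and Cdkn1b had a rho of 0.02.

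**Figure D4:**
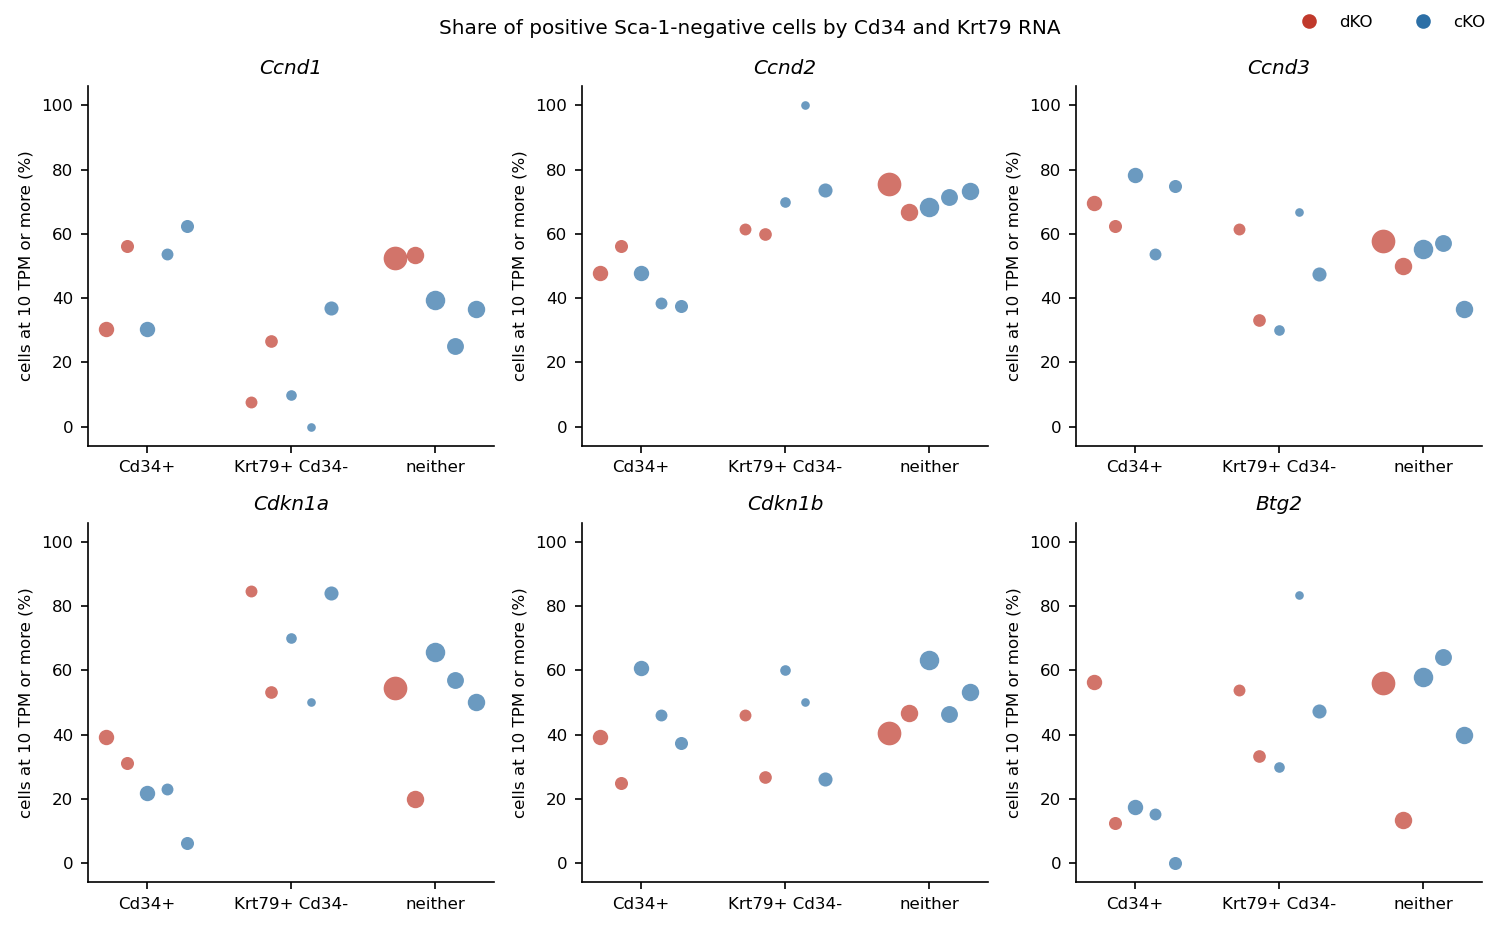
Share of Sca-1-negative cells at 10 TPM or more (y axis, percent) for 6 genes in cells with Cd34 RNA, in cells with Krt79 but no Cd34 RNA, and in cells with neither (x axis); each point is a plate and its area grows with the number of cells. On each of the 5 plates Cdkn1a and Ccnd2 are positive in a larger share of Krt79 cells than of Cd34 cells, and Ccnd1 in a smaller share.

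Several members differed between cells with RNA of different parts of the follicle. No size rule was set for this contrast, and the share of all genes that differ between these classes was not computed. Cd34 marks the bulge and Krt79 the upper follicle near the sebaceous duct; cells were split by these RNAs at 10 TPM into 91 Cd34 cells (39 dKO, 52 cKO), 63 Krt79 cells without Cd34 (28 dKO, 35 cKO) and cells with neither (87 dKO, 96 cKO). Cdkn1a was positive in 84.6% and 53.3% of the Krt79 cells on the dKO plates and 70%, 50% and 84.2% on the cKO plates, against 39.1% and 31.3% of the Cd34 cells in dKO and 21.7%, 23.1% and 6.25% in cKO. It was higher in Krt79 cells on each plate, and its mean over the cells of a genotype was 108.02 against 33.1 TPM in dKO and 115.4 against 30.1 TPM in cKO. Ccnd2 was positive in 60.7% of dKO and 77.1% of cKO Krt79 cells and in 51.3% and 42.3% of Cd34 cells, at means of 69.01 and 142.4 TPM against 39.4 and 43.2 TPM.

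Ccnd1 and Ccnd3 ran the other way. Ccnd1 averaged 6.69 TPM in dKO and 8.59 TPM in cKO Krt79 cells against 19.1 and 34.7 TPM in Cd34 cells, and its positive share was lower in Krt79 cells on each plate. Ccnd3 averaged 26.9 TPM in Krt79 cells of either genotype against 60.9 TPM in dKO and 82.8 TPM in cKO Cd34 cells, with a lower share on 4 of 5 plates; the exception, cKO plate 2, had 6 Krt79 cells. Cdkn1b averaged 7.87 TPM in dKO and 8.95 TPM in cKO Krt79 cells and 13.2 and 17.3 TPM in Cd34 cells, of which 1 dKO cell held 134.7 TPM. Its positive share did not follow, and its direction differed between plates. In Krt79 cells it was 46.2% and 26.7% in dKO and 60%, 50% and 26.3% in cKO. In Cd34 cells it was 39.1% and 25% in dKO and 60.9%, 46.2% and 37.5% in cKO. Btg2 was positive in 12 of 28 dKO and 17 of 35 cKO Krt79 cells, and in 15 of 39 dKO and 6 of 52 cKO Cd34 cells; of the 15 dKO Cd34 cells, 13 were of plate 1.

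The genotypes were also set side by side within these classes, over 6 measured members in each of 3 classes. In cells with neither marker Ccnd1 averaged 36.7 and 45.8 TPM on the dKO plates against 17.5, 27.03 and 29.4 TPM on the cKO plates, and was positive in 52.6% and 53.3% against 39.5%, 25% and 36.7%. Ccnd3 in the same cells averaged 42.4 and 53.2 TPM in dKO against 29.9, 28.6 and 31.2 TPM in cKO. Ccnd2 in Krt79 cells averaged 48.4 and 86.8 TPM in dKO and 98.1, 261 and 128.4 TPM in cKO, in 6 to 19 cells a plate. These were the means without overlap, 2 of 6 members in cells with neither marker, 1 of 6 in Krt79 cells and 0 of 6 in Cd34 cells, where 22.3%, 21.3% and 20.4% of the genes measured in each class were apart. Positive shares without overlap were those of Ccnd1 in cells with neither marker, Ccnd2 in Krt79 cells and Cdkn1a in Cd34 cells, 1 of 6 in each, where 19.7%, 19.4% and 19.4% of genes were apart. The members' separation within classes was thus near that of genes at large.

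Cells with proliferation RNA were set against the others of their plate. Top2a or Mki67, which mark cells from S phase to mitosis, reached 10 TPM in 15 of 93 (16.1%) and 8 of 61 (13.1%) dKO cells and in 13 of 71 (18.3%), 1 of 47 (2.13%) and 9 of 65 (13.8%) cKO cells; cKO plate 2 was left out of ratios. Of 11 measured genes of the 24 in the S-phase and mitosis list, 8 were higher in these cells, led by Ube2c (63.1 against 0.322 TPM), Cdk1 (43.2 against 0.171 TPM) and Cenpa (49.9 against 1.24 TPM), which describes the split. These cells also had more genes detected, with medians of 6045 against 5105.5 and 5609 against 5141 in dKO and 5774 against 4687 and 5185 against 5034.5 in cKO plates 1 and 3; the part of this was not tested.

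Ccnd1 was lower in cells with Top2a or Mki67, and no other member passed (the rule asks for a 1.5-fold change or more, averaged over plates, with the same sign on all 4 plates on the TPM and the log2 scale). Of 7103 measured genes, 4.29% were higher and 4.91% lower by that rule; the median log2 ratio of the members was -0.29, beside -0.18 over all genes. Ccnd1 averaged 25.95 against 27.1 TPM on dKO plate 1, 10.4 against 34.2 TPM on dKO plate 2, 0 against 19.7 TPM on cKO plate 1 and 13.5 against 28.5 TPM on cKO plate 3, a mean log2 ratio of -1.77. The first plate was nearly level and the third, where none of 13 cells held Ccnd1 (which allows a share of up to 23.1%), carried most of the mean; without cKO plate 1 the mean log2 ratio was -0.91, still past the rule. The positive share was 30.4% of dKO and 17.4% of cKO cells with Top2a or Mki67, against 45.8% and 38.1% of the cells without. The call was lost when cells with Top2a or Mki67 at 1 TPM, or with at least 3 genes of the S-phase and mitosis list, were taken in place, with Ccnd1 in 30.4% of 92 and 40% of 95 such cells and log2 ratios of -1.14 and -0.44.

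**Figure D5:**
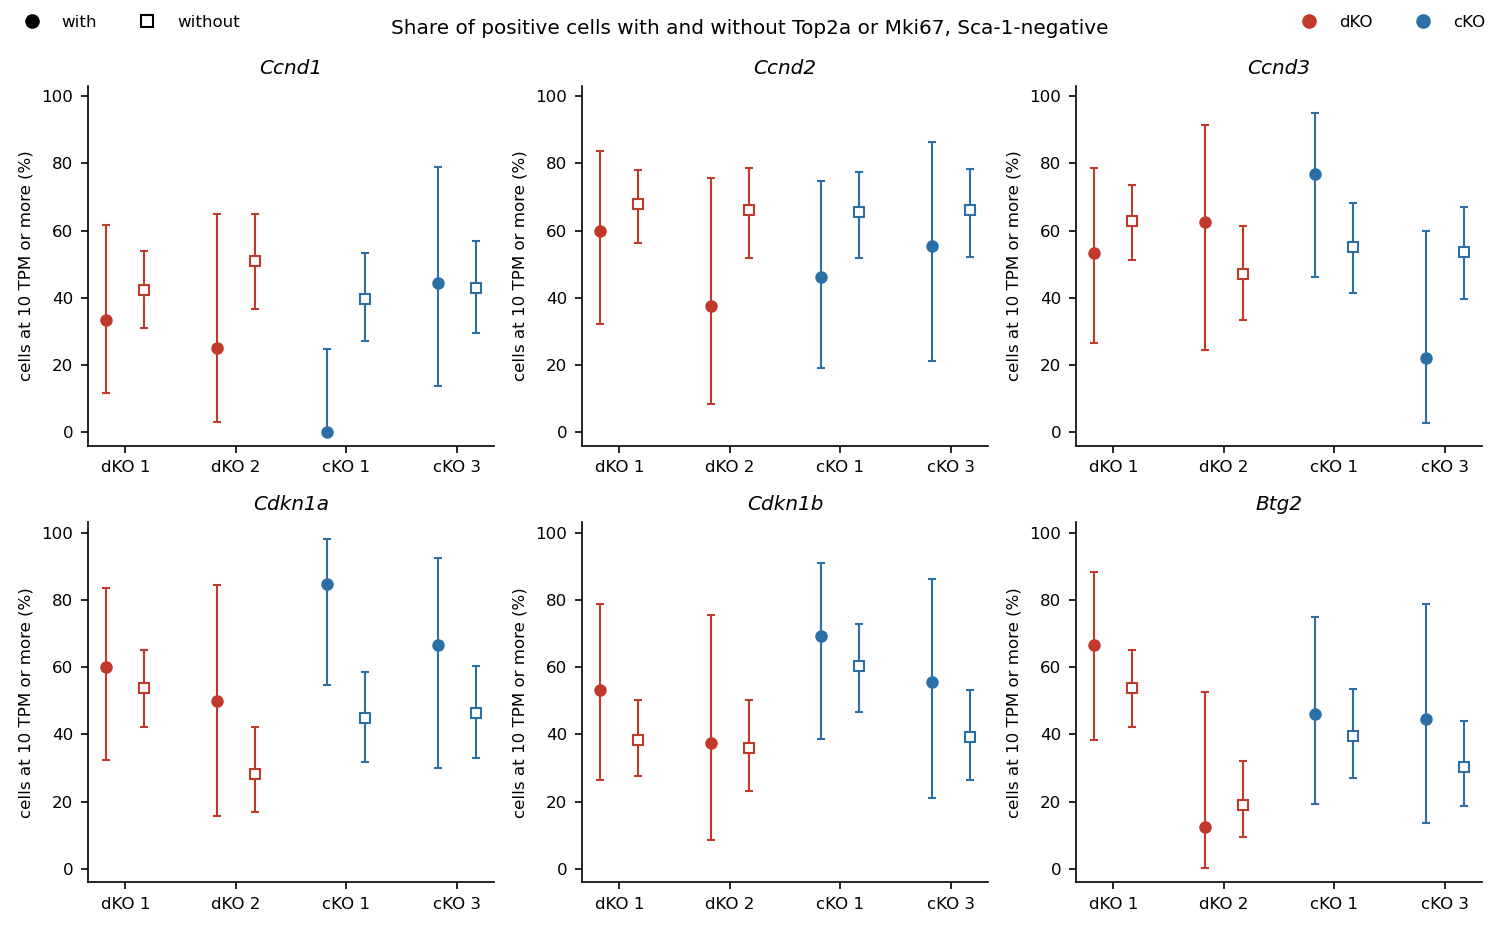
Share of Sca-1-negative cells at 10 TPM or more (y axis, percent) for 6 genes in cells with (filled circles) and without (open squares) Top2a or Mki67 at 10 TPM, by plate (x axis), without cKO plate 2, which had 1 such cell; bars are exact 95% intervals, counting error only. The share of Cdkn1a is larger in cells with Top2a or Mki67 on all 4 plates, with overlapping intervals, and that of Ccnd1 is smaller on 3 of them.

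Cdkn1a was not absent from proliferating cells. It was positive in 60% against 53.8% of cells on dKO plate 1, 50% against 28.3% on dKO plate 2, 84.6% against 44.8% on cKO plate 1 and 66.7% against 46.4% on cKO plate 3, cells with Top2a or Mki67 given before those without. The share was thus larger on all 4 plates, and over all cells it was 65.2% (49.8% to 78.6%) of 46 against 45.02% (39.2% to 50.9%) of 291. The mean did not follow, at 62.9 against 61.6 TPM over all cells, so positive cells without Top2a or Mki67 had higher levels. Within plates the mean was lower in dKO (49.5 against 62.5 TPM and 16.2 against 28.7 TPM) and higher in cKO (115.8 against 75.5 TPM and 57.2 against 49.02 TPM). Cells with Top2a or Mki67 also had more genes detected, and Cdkn1a had the highest rho with genes detected of the members, 0.24. The part of this in its share was not tested.

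The other members moved less or unevenly. Ccnd2 was positive in 24 of 46 (52.2%) cells with and 193 of 291 (66.3%) without Top2a or Mki67, lower on each of 4 plates in share but not in mean TPM. Ccnd3 was positive in 54.3% and 56.01%, with plate means of 21.5 against 46.7 TPM and 27.2 against 55.8 TPM in dKO and 51.1 against 52.7 TPM and 7.77 against 46.5 TPM in cKO. Cdkn1b was positive in 26 of 46 (56.5%, 41.1% to 71.1%) and 43.6% of 291 (37.9% to 49.6%), larger on all 4 plates, at means of 15.7 and 12.6 TPM. Btg2 was positive in 47.8% of the cells with Top2a or Mki67 in either genotype, and in 39.7% of dKO and 40% of cKO cells without. A CIP/KIP inhibitor beside a D-type cyclin was found in 35 of 46 (76.1%, 61.2% to 87.4%) and 62.2% of 291 (56.4% to 67.8%). Cells with no inhibitor were 13.04% of the 46 and 30.2% of the 291, and those with no D-type cyclin 13.04% and 10.3%. The joint share was not set against one expected from these single shares. All 3 D-type cyclins were found in 3 of 46 (6.52%) and 49 of 291 (16.8%).

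Partners of the members were set beside them in the same split. Ccna2, the cyclin that follows the D-type cyclins in S phase, was the 1 gene of 6 measured in the G1 list that was higher with Top2a or Mki67 (42.4 against 0.286 TPM). Of 5 pocket protein, E2F and DREAM genes Tfdp2 was higher (22.3 against 11.9 TPM), and of 8 genes that control p27 or cyclin D protein Cks1b, a cofactor of p27 destruction (27.4 against 3.29 TPM), and Fzr1, an activator of the anaphase-promoting complex (15.5 against 8.59 TPM), were higher. None of 9 p53 genes passed (Trp53 44.9 against 34.3 TPM, Phlda3 17.9 against 28.3 TPM), and none of 7 BTG/TOB and CCR4-NOT genes did (Cnot7 13.2 against 16.8 TPM, Tob1 6.78 against 9.97 TPM). Of the immediate early genes Klf4 was lower (28.6 against 42.5 TPM). These counts cover measured genes, averaging 5 TPM or more over all cells of the plates, which leaves out genes found mainly in the few proliferating cells. Below that mean, Rbl1 (11.6 against 2.05 TPM), E2f7 (9.78 against 0.557 TPM), E2f2, E2f8, Lin9, Ccne2 and Cdk2 were also higher by the rule. So were the INK4 inhibitors Cdkn2d (15.7 against 2.78 TPM) and Cdkn2c (6.12 against 0.615 TPM), but not Cdkn2a or Cdkn2b. The share of all genes below that mean that passed was not computed. Since the cells were chosen by Top2a and Mki67, genes of the cell cycle programme, Ccna2 and Cks1b among them, describe the split. In the Sca-1-positive gate no dKO cell and 2 cKO cells reached 10 TPM of Top2a or Mki67, too few to compare; of these 2, both lacked Ccnd1 and 1 held each of Ccnd2, Ccnd3, Cdkn1a and Cdkn1b.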

How the data were processed

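RNA of 384 single cells was measured by Smart-seq2. Per the submitters' processing notes, Bowtie2 2.2.9, RSEM 1.2.30 and the GRCm38 (mm10) build were used. The deposited table holds TPM, a level per transcript length that sums to 1000000 per cell, per its values; TPM keeps no read depth, so the depth is unknown, and Smart-seq2 has no molecular identifiers and marks no strand. RSEM splits reads shared between similar genes by a model. Groups came from the genotype and sorting labels; the number in the titles was read as a plate. Cells with at least 1000 genes at 1 TPM were kept, and a gene was called measured at a mean of 5 TPM or more in the plates or groups compared. Ratios are of mean TPM (plates weighted equally) plus a pseudocount of 1 TPM, which understates low genes. The median log2 ratio of all genes was -0.12 between genotypes, and 0.0001 after the ERCC and 5 most abundant rows were removed; between gates it was -0.30 in dKO and -0.15 in cKO, and -0.16 and -0.03 after that removal. Size rules are not tests. The rules were tried on simulated plates drawn from pooled cells, which hold no differences between plates, with changes larger than the rules ask for. That cannot show how they perform near their limits on the real plates. Named genes are the members, up to 3 genes per list past the rule (otherwise the 2 highest) and the 3 most alike by Spearman rho; others were chosen after their values were seen. Members, lists and rules were chosen with earlier results of these data known. Alternatives were other pseudocounts, filters, scalings, thresholds, splits and left-out plates. Python 3.11.15, numpy 2.4.6, pandas 2.3.3, scipy 1.17.1 and matplotlib were used, with coordinates from GENCODE.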

Additional observations from a re-analysis of the deposited data

Results flagged for a closer look

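The ratio of dKO plate 2 to cKO plate 3 had opposite signs in the 2 gates for Btg2 and for Cdkn1a. Btg2 was higher in dKO among Sca-1-positive cells (66.2 against 28.3 TPM) and lower in dKO among Sca-1-negative cells (7.19 against 16.8 TPM), a difference of 2.31 between the log2 ratios. Cdkn1a was at 76.4 against 57.5 TPM among Sca-1-positive and 27.03 against 50.2 TPM among Sca-1-negative cells, a difference of 1.27. The summed immediate early genes went the same way, at 4021 against 2423 TPM and 875 against 1518 TPM.

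The ratio of Cdkn1a in cells with Top2a or Mki67 to those without was below 1 on both dKO plates and above 1 on both cKO plates that were compared, with a mean log2 difference of -0.98 between dKO and cKO. In mean log2(TPM + 1) it was above 0 on all 4 plates, by 0.45 and 0.69 in dKO and by 2.38 and 1.29 in cKO.

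None of these differences was tested, since each rests on 1 plate per group or on 2.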

How the results depend on the processing

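Each comparison was repeated under 10 to 21 alternatives. Of 444 log2 ratios of single members under alternatives, 419 stayed within the spread between plates of the main value and 25 moved beyond it. No called ratio changed sign. The spread was each gene's own, so a gene that varied more between plates was allowed a larger shift. These counts therefore cannot show that a ratio was stable. Ccnd1 with against without Top2a or Mki67 stayed within its spread under every alternative. Its call was still lost at a cut of 1 TPM and with at least 3 S-phase and mitosis genes. The number of members past the rule was unchanged but for the following. Between dKO and cKO in Sca-1-negative cells it was 0 in the main setting. It was 1 (Ccnd2) on the plates with Xist RNA, 2 (Cdkn1a, Btg2) on those with Y-linked RNA, and 0 to 2 with 1 plate left out. No share of all genes was computed for these subsets of plates. In cKO gates the number of members past the rule was 0 in place of 1 with rows C and D alone. In Sca-1-positive cells it was 0 in place of 1 with a pseudocount of 10 TPM. With against without Top2a or Mki67 it was 1 (Ccnd1), but 2 (with Ccnd2) after removal of the highest 5% of cells, 0 at a cut of 1 TPM, 3 (with Ccnd2, lower, and Cdkn1a, higher) at 50 TPM, 2 when both genes were required and 0 with at least 3 S-phase and mitosis genes; leaving out a plate gave 1 to 1, as did cells with at least 4500 genes, an alternative chosen after seeing the data. Difference of mean log2 added Ccnd2 in the dKO gates (3 in place of 2). Members whose positive shares did not overlap numbered 1 (Cdkn1b), but 2 at 1 TPM (Ccnd1 and Cdkn1c), 1 at 5 TPM (Ccnd1), 0 at 20 TPM and 0 after matching on genes detected. These counts take all 7 members, with Cdkn1c, which was not measured. Its shares at 1 TPM were 1.08% and 0% in dKO and 2.82%, 2.13% and 3.08% in cKO, a few cells at most. No share of all genes was computed at these other cuts or after matching. The gain of Btg2 in cells with Cdkn1a was 26.2 percentage points, 29.8 at 1 TPM and 25.4 at 20 TPM. No paired analysis was possible because the comparison of genotypes comes from no test to which a replicate block could be added; gates and the split by Top2a or Mki67 were compared within plates. Depth per cell is unknown, and 19 and 22 Sca-1-positive cells on 1 plate each limit the gate comparisons.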
